A study of Mus musculus with 2 samples.

Results

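Stellate cell and mesenchymal genes were followed in cultured hepatocytes from control and *Drp1*LiKO mice. The group held *Acta2*, *Des*, *Reln*, *Pdgfrb*, *Dcn*, *Lum*, *Rgs5*, *Tagln*, *Hgf* and *Vim*, that is, 10 of the 37074 gene names on the array. Its members were every transcript probe that carries one of these names in the array design, 22 of 56605 probes. *Drp1*LiKO mice (*Alb-Cre*Tg/+ *Drp1*flox/flox) lack *Drp1*, the GTPase that divides mitochondria, in cells in which the albumin promoter is active, chiefly hepatocytes. The controls were *Drp1*flox/flox littermates without Cre, labeled as wild type, and both were on a C57BL/6 background. The age and sex of the animals behind these cultures and the number of animals in each are not given in the sources used here. Cells of the low-speed pellet of a collagenase-digested liver were plated on collagen I in medium with serum, floating cells were removed, and RNA was taken 24 h after seeding as 1 sample per genotype and read in 1 color, 1 array each, both on the same slide and in the same scan.

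Hepatic stellate cells are the pericytes of the liver sinusoid and store vitamin A as long as they are quiescent. In injured liver, and on plastic or collagen in culture, they turn into myofibroblasts that gain contractile proteins, answer to platelet-derived growth factor and lay down matrix. Portal fibroblasts and vascular smooth muscle express many of the same genes, and none of the 10 genes marks stellate cells alone.

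Neither genotype has a replicate array. No test was therefore possible, p-values are not given, and a difference describes this pair of arrays alone. Signals are linear intensities corrected for background by the scanner software. The ± after a signal is the error that this software assigned to the spot. It covers the reading of the spot and not differences between cultures, and the SE of a log2 ratio was derived from it. Ratios are *Drp1*LiKO over control after each array was scaled to its 75th percentile, which was 313 on the control and 356 on the *Drp1*LiKO array. A probe was compared if either array had it well above background, which held for 30275 probes of 20165 genes. Signals below that limit were set to the lowest one above it on their array (18.2 for control, 15.0 for *Drp1*LiKO). A ratio with such a signal is a bound, written "at least". The brightest probe stands for its gene. A Z score of 2 over all probes compared, the size of change that the study's methods name, lay at a log2 ratio of 1.30 upward and of -1.31 downward. Of all genes, 3.5% were past it upward and 2.81% downward, and the median gene had a log2 ratio of -0.05. The targeted gene, listed as *Dnm1l*, went from 2602 to 1217 at its brightest probe, a log2 ratio of -1.28 that is just short of that size. Where this probe lies relative to the deleted exons is not given in the sources used here. All 12 hepatocyte markers examined, *Alb* and *Ttr* among them, were well above background on both arrays.

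The 10 genes did not move as a block. Past the Z score of 2, 4 of 10 were higher in *Drp1*LiKO cells (40%, against 3.5% of all genes) and 0 were lower (against 2.81%). These were the matrix proteoglycans *Dcn* and *Lum*, the contractile gene *Tagln* and the growth factor receptor *Pdgfrb*. *Vim* and the brightest probe of *Acta2*, both measured on both arrays, had ratios within their spot errors, and *Reln* was higher but short of the threshold. For *Hgf* and *Rgs5* there were only lower bounds under the threshold, and for *Des* no fold, so these 3 cannot be placed on either side of it. The median log2 ratio over the 10 genes was 1.05, and over the 5 measured on both arrays it was 1.04. Of the 22 probes, 6 were well above background on both arrays, 8 on the *Drp1*LiKO array alone, 0 on the control array alone and 8 on neither. In the same way 5 of the 10 genes entered the comparison through the *Drp1*LiKO array alone. These had to be higher there or give no fold. The count and the median over the 10 genes therefore describe the genes and are no support for a direction. Among the probes compared, 5 of 14 were past the threshold upward (35.7%, against 2.94% of all probes) and 0 downward (against 2.49%). In bulk RNA, more cells of a type and more RNA per cell of that type cannot be told apart.

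**Figure D1:**
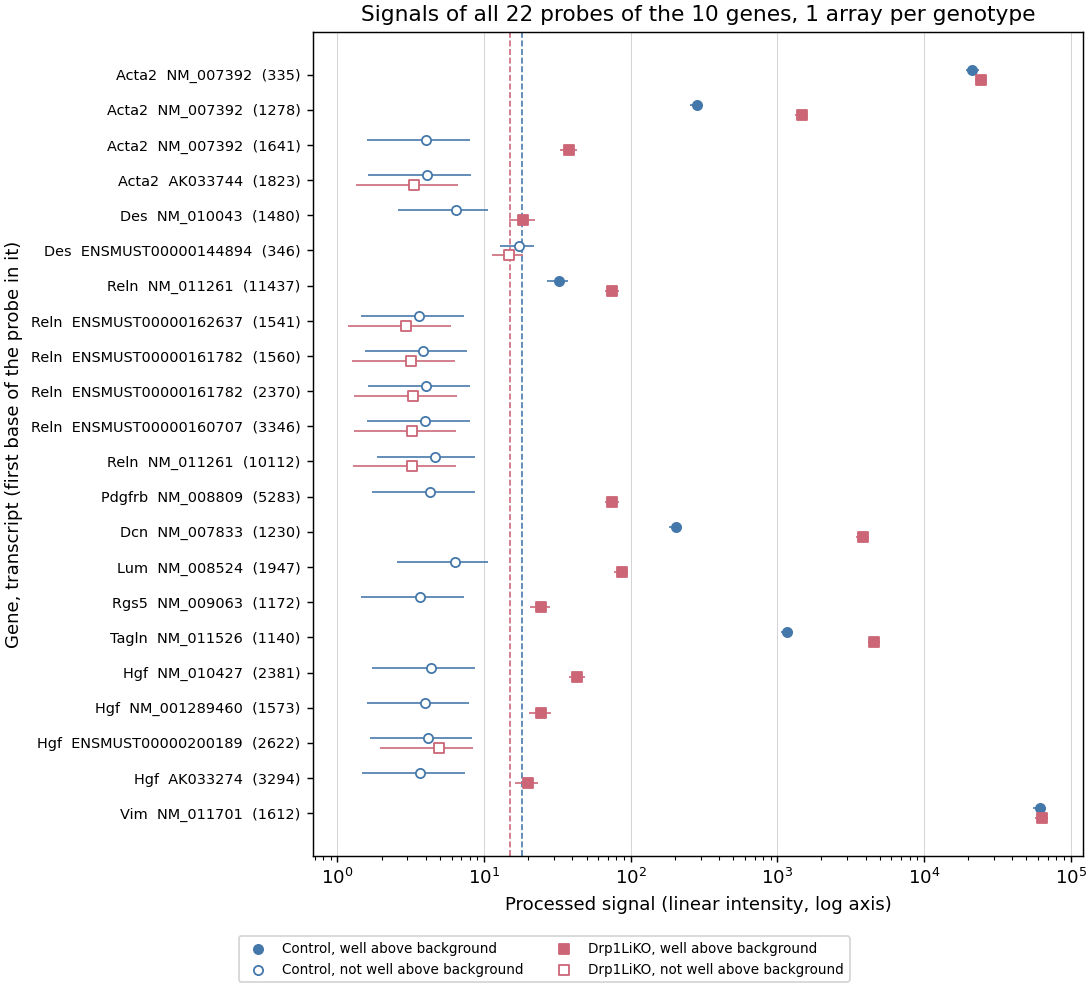
Processed signal, a linear intensity on a log axis, of all 22 probes of the 10 genes on the control (circles) and the *Drp1*LiKO array (squares), with bars for the error the scanner software gave to each spot, drawn to at most 60% of the signal on the low side. Open symbols are not well above background, dashed lines mark the lowest signals that are (18.2 and 15.0), and *Dcn*, *Tagln* and the second *Acta2* probe show the widest gaps among filled pairs.

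*Dcn* and *Lum* encode decorin and lumican, small leucine-rich proteoglycans that bind collagen fibrils. *Dcn* (NM_007833) showed the widest difference of the group, from a control signal of 203 ± 20.8 to 3848 ± 385 in *Drp1*LiKO cells. That is a log2 ratio of 4.06 ± 0.206 (SE), or 16.7-fold, and it ranked 11 from the top among the 17735 genes measured on both arrays. The value rests on 1 probe, at chr10:96980233-96980292 of mm9 on the plus strand. Its sequence is shown because the widest difference of the group rests on it.
Dcn probe: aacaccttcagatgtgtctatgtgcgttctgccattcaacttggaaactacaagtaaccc

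*Lum* (NM_008524, chr10:97035210-97035269) was not well above background in control cells, at 6.39, and had a signal of 86.7 ± 9.37 in *Drp1*LiKO cells, at least 4.19-fold higher. *Lum* is the next gene after *Dcn* on chromosome 10 in the RefSeq gene order, and it is followed by *Kera* and *Epyc*, genes of the same proteoglycan family. *Kera* (5.53 and 3.26) and *Epyc* (3.63 and 2.95) were not well above background on either array. *Lum* was short of the threshold with normexp background correction (log2 ratio 0.69), in the deposited normalized intensities (1.18) and with a Z score taken among probes of like signal.

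The contractile gene *Tagln* and the intermediate filament genes *Des* and *Vim* gave unlike values. *Tagln* (NM_011526, chr9:45738097-45738156, minus strand) encodes transgelin, an actin-binding protein of smooth muscle. Control cells gave 1171 ± 117 and *Drp1*LiKO cells 4595 ± 460, which is a log2 ratio of 1.79 ± 0.204 or 3.46-fold. *Des* encodes desmin, the intermediate filament of muscle that stellate cells of rodents also carry. Its probe for NM_010043 had 6.47 in control, not well above background, and 18.5 ± 3.77 in *Drp1*LiKO cells, only just above the limit, and allows no fold. The other *Des* probe was not well above background on either array, at 17.3 and 14.9. *Vim*, vimentin, is the intermediate filament of mesenchymal cells and is also gained by many epithelial cells on plastic. It was bright on both arrays, 61425 ± 6143 for control and 63947 ± 6395 for *Drp1*LiKO, and its log2 ratio of -0.12 ± 0.204 lies within the spot error.

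*Acta2* encodes alpha smooth muscle actin, the usual mark of an activated stellate cell. Of its 4 probes 3 were compared, and these gave unlike ratios. The brightest, which represents the gene, gave 21437 ± 2144 with control and 24640 ± 2464 with *Drp1*LiKO RNA, for a log2 ratio of 0.02 ± 0.204. Another probe for the same transcript (NM_007392) had 282.8 ± 28.5 and 1474 ± 147, a log2 ratio of 2.20 ± 0.205 or 4.59-fold, past the threshold. The third had 4.00 in control, not well above background, and 38.0 ± 5.01 in *Drp1*LiKO cells, at least 1.84-fold higher.

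The first and the second probe differed in log2 ratio by 2.18 ± 0.289, a gap wider than the spot errors. They start 943 bases apart in the transcript, at bases 335 and 1278, and the third starts at base 1641. On mm9 the first spans chr19:34322995-34326249 on the minus strand, 60 bases over 3255, and so crosses an intron, whereas the second lies unbroken at chr19:34316060-34316119. The fourth, for the transcript AK033744, was not well above background on either array. The first probe lies in the coding part of the transcript, which is closely alike among the actin genes. Its sequence is given so that it can be set against them.
Acta2 probe 1: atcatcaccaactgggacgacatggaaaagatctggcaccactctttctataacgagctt
None of the 22 probes shared a run of 16 bases with another probe on the array, but this sets probes against probes and not against transcripts. Whether *Acta2* probe 1 also binds transcripts of other actin genes was not tested. The brightest probes of *Actb*, *Actg1* and *Actg2* had log2 ratios of -0.21, 0.11 and -0.08.

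**Figure D2:**
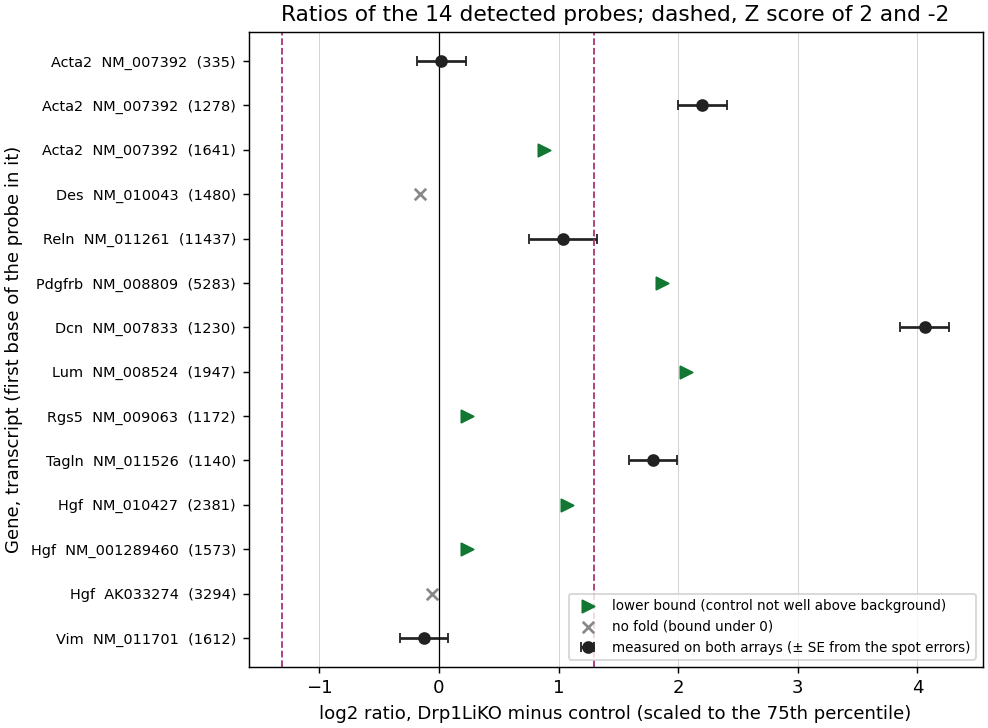
Log2 ratio of *Drp1*LiKO over control for the 14 probes compared, with the SE from the spot errors for the 6 probes measured on both and triangles for lower bounds. Dashed lines mark a Z score of 2 and -2, at 1.30 and -1.31; the *Acta2* probes starting at bases 335 and 1278 lie on opposite sides of the upper one.

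Many genes of the contractile program carry CArG boxes, the motif bound by serum response factor, near their start. The 250 bases before the start of *Acta2* (GRCm38.p6, chr19:34255374-34255623, minus strand, from RefSeq) are shown. Of the member promoters searched, only that of *Acta2* held the motif. Capitals mark the boxes, each with 1 departure from the A or T core.
Acta2 promoter: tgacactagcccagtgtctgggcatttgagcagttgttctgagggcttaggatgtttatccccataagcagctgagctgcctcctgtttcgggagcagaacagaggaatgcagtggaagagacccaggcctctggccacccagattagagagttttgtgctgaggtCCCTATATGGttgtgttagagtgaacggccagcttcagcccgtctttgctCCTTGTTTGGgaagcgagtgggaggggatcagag
The boxes, CCCTATATGG and CCTTGTTTGG, lie 84 and 34 bases before the start. Both strands were searched and the motif reads alike on both. Of 32851 promoters of 300 bases, 9.98% held at least 1 box with up to 1 departure, 0.822% at least 2 and 1.63% a strict box. Of the 10 genes, 6 had promoters in the set searched, 7 in all, of which 0 held a strict box. *Tagln*, *Dcn*, *Lum* and *Pdgfrb* had no promoter in that set and were not searched. A match is a description of these letters.

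The receptor and the secreted ligands were dim. *Pdgfrb* (NM_008809) encodes the PDGF receptor beta, through which platelet-derived growth factor drives stellate cells to divide. It had 4.31 in control, not well above background, and 75.1 ± 8.30 in *Drp1*LiKO cells, at least 3.63-fold higher. It was short of the threshold with normexp background correction (log2 ratio 0.61) and with a Z score taken among probes of like signal. *Reln* encodes reelin, a secreted glycoprotein of neurons that stellate cells also make. The probe at chr5:21390477-21390536 was well above background on both arrays, with 32.2 ± 5.24 and 75.1 ± 8.25, a log2 ratio of 1.04 ± 0.283 or 2.06-fold, short of the threshold. The other 5 *Reln* probes were well above background on neither array.

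*Hgf* encodes hepatocyte growth factor, which mesenchymal cells secrete and hepatocytes receive through *Met*. Its probe for NM_010427 had 4.32 in control and 43.3 ± 5.62 in *Drp1*LiKO cells, at least 2.09-fold higher. The probe for NM_001289460 had 3.96 and 24.4 ± 4.07, at least 1.18-fold higher. The third *Hgf* probe gave no fold (3.68 and 19.8) and the fourth was well above background on neither array. *Rgs5*, a regulator of G protein signalling found in pericytes, had 3.63 in control and 24.4 ± 3.84 in *Drp1*LiKO cells, at least 1.18-fold higher. For *Hgf* and *Rgs5* the control signals lay below the limit of the array, so the size of these differences was not measured. The bounds take no account of the spot errors. With its error taken off, the *Drp1*LiKO signal behind each 1.18-fold bound would leave no fold.

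Beyond the 10 genes, lists of related genes were examined by their brightest probes, and each list held ratios on both sides of 0. Of 21 further genes of stellate and pericyte identity, 12 were compared, of which 9 were higher and 3 lower, with a median log2 ratio of 0.42. Of the 12, 2 entered through the *Drp1*LiKO array alone, and the median over the 10 measured on both arrays was 0.39. Past the threshold were *Cygb*, cytoglobin of stellate cells (27.5 to 176, a log2 ratio of 2.50), and *Kcnj8*, a potassium channel subunit of pericytes (55.5 to 313, 2.31), and 0 were past it downward. *Notch3* was lowest of those measured on both arrays, at -0.32. *Lrat*, *Gfap*, *Ngfr*, *Hand2* and *Tcf21*, which define quiescent stellate cells, were well above background on neither array, so the genes are named here by their list and not taken as a measure of that cell.

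Fibrillar collagens and their partners were the list most often past the threshold among the related ones. Of 22 genes of fibroblast matrix, 14 were compared, 11 were higher and 2 lower, 1 gave no direction, and the median log2 ratio was 0.83. Of the 14, 5 entered through the *Drp1*LiKO array alone and had to be higher or give no direction. Over the 9 measured on both arrays the median was 0.62. Past the threshold upward were 6, among them *Col1a2*, a chain of type I collagen (110 to 953, 2.93), *Prelp*, a proteoglycan related to *Lum* (26.7 to 99.5, 1.72), and *Sparc*, a collagen-binding matrix protein (6419 to 22007, 1.59). The other 3 were bounds, *Col3a1*, the chain of type III collagen, at least 8.78-fold higher, *Postn*, periostin, at least 3.51-fold, and *Fbn1*, fibrillin-1, at least 3.31-fold. *Lox*, which crosslinks collagen, was past it downward, from 263 to 54.7, a log2 ratio of -2.45.

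The smooth muscle list, to which *Tagln* is close in function, was split in direction. Of its 14 genes, 10 were compared, 5 higher and 5 lower, with a median log2 ratio of -0.01. *Myl9*, the regulatory myosin light chain of smooth muscle, was past the threshold (246 to 1472, 2.40), and *Cnn1*, calponin, was lowest at -0.77. All 16 genes of the actin cytoskeleton and serum response factor list were measured on both arrays, and 0 were past the threshold in either direction, with a median of -0.03 and a range from -0.32 (*Actn1*) to 0.44 (*Tubb6*). *Srf* itself had 0.03.

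**Figure D3:**
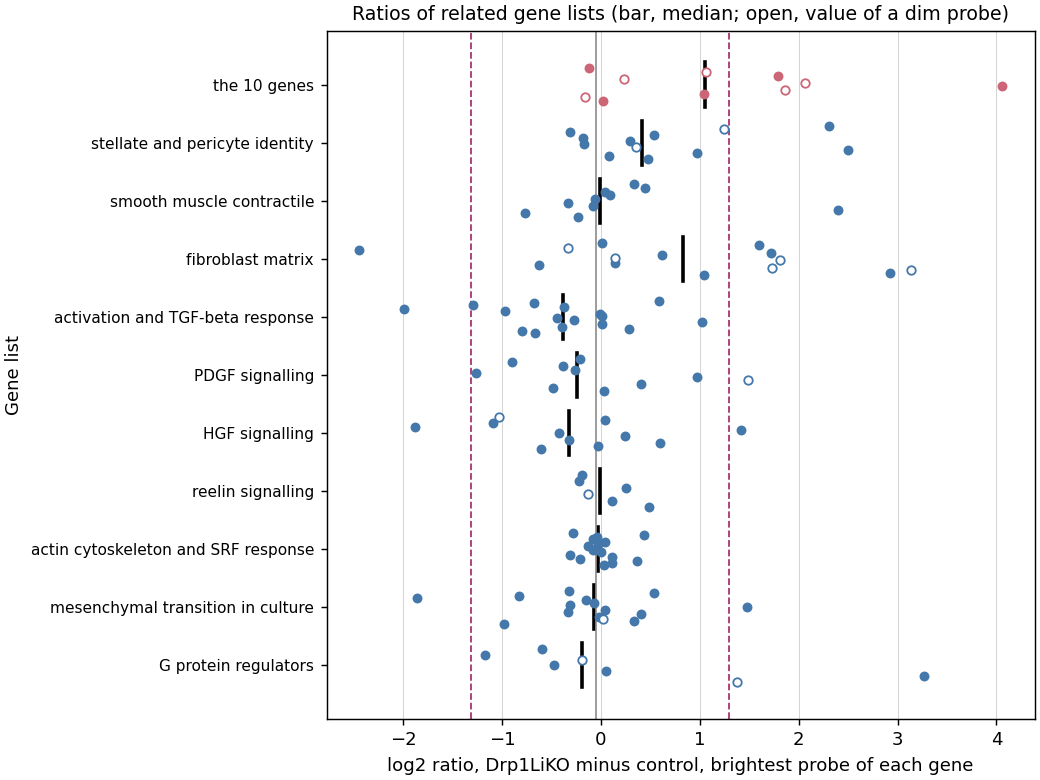
Log2 ratio of *Drp1*LiKO over control for the brightest probe of each compared gene in 10 related lists and the 10 genes themselves (top row), filled where measured on both arrays and open where a dim signal makes it a bound or leaves no fold. Black bars are medians, the grey line is the median of all genes (-0.05) and dashed lines are a Z score of 2 and -2. The fibroblast matrix list has the highest median of the related lists, at 0.83, and at 0.62 over genes measured on both arrays.

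Medians lay below 0 for the TGF-beta, PDGF and HGF lists. Over all genes compared the median was -0.05, and 44.5% of them had a ratio above 0. Of 16 genes compared for activation and TGF-beta response, out of 18, 5 were higher and 11 lower with a median of -0.39. Past the threshold was *Timp2* alone, an inhibitor of matrix proteases, from 1739 to 496 (-1.99), and *Tgfbr3*, a coreceptor, was highest at 1.02. All 10 PDGF signalling genes were compared, 4 higher and 6 lower with a median of -0.24, and *Pdgfd*, a ligand of the receptor beta, was past the threshold as a bound of at least 2.81-fold. *Pdgfra*, the other receptor, was highest of those measured on both arrays (21.6 to 48.2, 0.97) and *Pdgfrl* lowest at -1.26.

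Of the 11 HGF signalling genes, all compared, 4 were higher and 7 lower with a median of -0.32. The plasminogen activators, which cleave HGF into its active form, went apart. *Plau* was past the threshold upward (167 to 505, 1.41) and *Plat* downward (747 to 229, -1.89). *Met*, the HGF receptor, had a log2 ratio of -0.60.

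Of 7 reelin signalling genes 6 were compared, 3 higher, 2 lower and 1 with no direction, from -0.22 (*Crkl*, an adaptor) to 0.49 (*Vldlr*, a reelin receptor) with a median of -0.01 and 0 past the threshold. Of 16 genes of mesenchymal transition in culture, 15 were compared, 6 higher and 9 lower with a median of -0.07. *Cldn1*, a tight junction protein of epithelia, was past the threshold upward (262 to 830, 1.48) and *S100a4*, a calcium-binding protein of fibroblasts and leukocytes, downward (23479 to 7359, -1.86). Of 8 other G protein regulators 7 were compared, 3 higher, 3 lower and 1 with no direction, with a median of -0.19. *Rgs2* (28.9 to 316, 3.27) and, as a bound of at least 2.60-fold, *Rgs1* were past the threshold upward, and *Rgs16* was lowest at -1.17.

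Markers of macrophages and of sinusoidal endothelial cells were higher in *Drp1*LiKO cells. Of 11 Kupffer cell and macrophage markers, 10 were compared, 10 were higher and 9 were past the threshold, with a median log2 ratio of 2.42. Their summed signal, in units of each array's 75th percentile, was 14.5 for control and 52.9 for *Drp1*LiKO cells. All 11 sinusoidal endothelial markers were compared and were higher, 5 past the threshold, with a median of 1.26 and a summed signal of 15.1 and 28.4. *Egfl7* was by far the brightest of the endothelial markers (3773 and 6941). In the macrophage and in the endothelial list, 2 markers each entered through the *Drp1*LiKO array alone and could not be lower. Over markers measured on both arrays the medians were 2.43 and 1.26. The sum over the 10 genes was 269 and 274, of which *Vim* made up 196 and 180 and the brightest probe of *Acta2* 68.4 and 69.3. Over the other 8 genes it was 4.57 and 24.6, of which *Dcn* made up 0.649 and 10.8 and *Tagln* 3.74 and 12.9. Over the list of stellate and pericyte identity it was 43.0 and 46.7, and 19.9 and 26.2 without *Ecm1*, its brightest gene.

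Of the epithelial and mesothelial lists, the median was below 0 for cholangiocyte markers and above 0 for the other two. Cholangiocyte markers (5 of 7 compared, 2 higher and 3 lower) had a median of -0.27 and a sum of 94.7 and 70.8, with *Epcam* and *Cftr* well above background on neither array. Mesothelial markers (3 of 7 compared, 2 higher and 1 lower) had a median of 0.32 and a sum of 13.1 and 10.3. Nearly all of that sum was *Krt19* (4049 and 3482), which is also in the cholangiocyte list. *Msln* went from 52.5 to 143, and *Wt1* was well above background on the *Drp1*LiKO array alone. Hepatocyte markers (12 of 12 compared, 8 higher and 4 lower) had a median of 0.25 and a sum of 2097 and 2135, from *Cyp2e1*, an oxidase of drug metabolism, at -0.78 to *Ahsg*, the plasma protein fetuin-A, at 1.83, the 1 marker past the threshold. The part that the cell types in each culture had in the values of *Dcn*, *Lum*, *Tagln* and *Pdgfrb* was not tested.

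**Figure D4:**
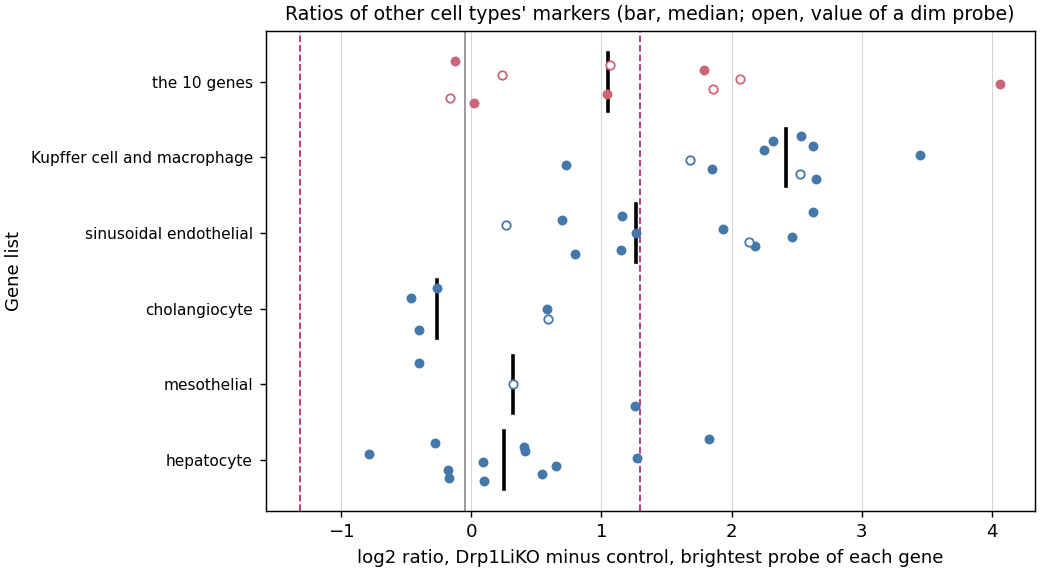
Log2 ratio of *Drp1*LiKO over control for the brightest probe of each compared marker of 5 cell types and of the 10 genes (top row), filled where measured on both arrays and open where a dim signal makes it a bound or leaves no fold. Black bars are medians, from 2.42 for macrophage to -0.27 for cholangiocyte markers, the grey line is the median of all genes and dashed lines are a Z score of 2 and -2.

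The protein-coding neighbors of the 10 genes in the RefSeq order, *Dcn* and *Lum* left aside, numbered 18, of which 11 were compared, 3 with a log2 ratio above 0 and 8 below. Past the threshold 0 were higher and 1 was lower, *Nuf2*, a kinetochore gene beside *Rgs5*, at -2.03. *Csf1r*, a macrophage receptor gene beside *Pdgfrb*, had 0.73. *Fas*, a death receptor gene that flanks *Acta2*, had -1.02.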

How the data were processed

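RNA of primary hepatocytes in 1 control and 1 *Drp1*LiKO sample was labeled with Cy3 and read on 60-mer Agilent mouse arrays, 62976 spots each. The authors deposited, per array, the Feature Extraction output with a linear intensity per spot, background-subtracted and corrected for trends, and not normalized between arrays. The software version is 9.5.1.1 in the submitters' processing notes and 10.7.1.1 in the file headers. A deposited table of normalized intensities, whose method is not given in the sources used here, was tried as an alternative, because the order of its probes matched the *Drp1*LiKO array less well (rank correlation 0.958) than the control array (1.00).

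From the processed signals, control spots and spots marked as outliers (71 and 63) were removed, the remaining spots of a probe were averaged as log2 values, and these were centered on the 75th percentile of their array. Well above background were 27256 probes (48.2%) on the control and 29462 (52.1%) on the *Drp1*LiKO array, and 0 spots were saturated on either. Probes printed 10 times had a median SD between spots of 0.037 and 0.041 on the log2 scale, and of 0.20 and 0.23 below a signal of 64. The floor, the Z score and the choice of the brightest probe are as given above. The number of arrays limits the precision.

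The 10 genes, the 10 related lists (stellate and pericyte identity, smooth muscle contractile, fibroblast matrix, activation and TGF-beta response, PDGF, HGF and reelin signalling, actin cytoskeleton and serum response factor, mesenchymal transition, G protein regulators) and the 5 marker lists were chosen with earlier results of these data known. Named were all 10 genes, *Dnm1l*, and of each related list up to 4 genes past the threshold measured on both arrays and the highest and lowest. Other genes were named after their values were seen. Of the gene names of the array design, 24787 are found in RefSeq for GRCm38.p6. The files place probes on mm9.

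The alternatives were quantile normalization, normexp with an offset of 50, spike-in scaling, the deposited table, other filters, no floor, outlier spots kept, the median of a gene's probes and other Z scores (robust, or within 20 bins of signal). Counting any probe and leaving out the *Acta2* probe across an intron were added after the data were seen. The steps were tested on simulated data over 19166 genes, in which 200 of 200 changed genes and 0 unchanged ones passed the threshold. The planted changes lay well past the threshold, in genes measured on both arrays. The added noise was smaller than the spread of the real ratios. The run therefore checks that the steps work, and cannot tell of false calls or dim probes in the real data. Tools were R 4.3.3 (limma 3.58.1) and Python 3.11.15 (pandas 2.3.3, numpy 2.4.6, matplotlib 3.10.9).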

Additional observations from a re-analysis of the deposited data

How the results depend on the processing

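*Dcn* was past the threshold in all 11 settings that use the brightest probe, with log2 ratios from 3.70 to 4.18, and *Tagln* in 10, from 1.77 to 1.86. The exception was the setting with no floor for dim signals. *Pdgfrb* was past it in 8, from 0.61 to 3.94, and *Lum* in 7, from 0.69 to 3.58. The number of genes past the threshold upward was 4, and it was 2 with normexp background correction, 2 with probes well above background on both arrays and 2 with a Z score taken within bins of signal, in each case *Dcn* and *Tagln*. It was 3 with the deposited intensities, without *Lum*, 5 with no floor, 6 with no filter on dim probes and 6 with a robust Z score, which 8.54% of all genes passed upward. The median log2 ratio over the 10 genes was 1.05, and it was 0.26 with normexp, 2.18 with no floor and 1.43 without the *Acta2* probe that crosses an intron, when *Acta2* also passed the threshold. The cause of these shifts was not tested. Quantile normalization gave 0.99, spike-in scaling 1.09 and the deposited intensities 0.94. Without a filter on dim probes the median of all genes was -0.47. Of the values set against these alternatives 85 stayed within the limits set for them, 19 moved by more than the spot error of 0.205, 3 counts fell past their limit, to 2, and 0 reversed. The count of 3 with the deposited intensities was within its limit. For single genes a reversal was looked for only in those past the threshold. Sign changes of *Des* with no floor and of *Acta2* with normexp were therefore not counted. No paired analysis was possible because each genotype has 1 array. Signal over background limits 8 of the 14 probes compared, whose control signal is known only as a bound.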

Other observations

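The actin genes of striated muscle were measured too. *Acta1*, the skeletal muscle form, went from 62.0 in control to 131 in *Drp1*LiKO cells (log2 ratio 0.90), and *Actc1*, the cardiac form, from 270 to 348 (log2 ratio 0.18), neither past the threshold.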
